A study of Mus musculus with 2 samples.

Results

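CpG-rich promoters of single genes made up 2549 of the 26844 EP300 peaks on chromosomes 1 to 19 and X in newborn mouse liver. A peak was counted here when its summit lay within 1 kb of the transcription start site (TSS) of a protein-coding gene, away from head-to-head TSSs of a gene pair, and when the sequence from 250 bases before to 250 bases after the summit was at least 50% G+C with a CpG observed/expected ratio of at least 0.6. That ratio sets the number of CG dinucleotides against the number expected from the C and G content. The peaks were nearest to 2210 genes, of which 304 had 2 such peaks, 16 had 3 and 1 had 4. Position and sequence chose them, and signal was not used.

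EP300 (p300) acetylates histones at enhancers and promoters, to which it is brought by DNA-binding factors. Most mammalian promoters of broadly used genes lie in CpG islands, stretches rich in CG dinucleotides that are usually free of DNA methylation. The newborn liver holds hepatocytes beside the last blood-forming cells of the fetal liver.

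The study measured EP300 by chromatin immunoprecipitation sequencing (ChIP-seq) in whole liver of strain B6NCrl mice at age 0 days, as 1 group of 2 replicates. By the labels the replicates share 1 biosample and 1 donor, so their spread is that of libraries and immunoprecipitations, and sex was not collected. Peaks come from the optimal list, which the authors made from both replicates by irreproducible discovery rate (IDR). Signal is the authors' value per peak, on a scale that is not stated, and no list gives read counts, so depth is unknown. With 1 group there is no contrast between samples and no p-value is given. Intervals are 95% Clopper-Pearson intervals, and the limit that a count of 0 allows is 3 counts of the total; both cover the counting of peaks or genes only. In whole tissue, more cells with EP300 at a site and more EP300 per cell cannot be told apart. Of the defining markers of the labelled tissue, 24 of 32 hepatocyte secreted protein genes and 36 of 47 erythroid genes had a peak of any kind within 1 kb, against 0 of 21 neuron genes and 22.4% of all protein-coding genes. Hepatocyte transcription factors had one at 10 of 29 genes, and macrophage and Kupffer cell genes at 4 of 20 (20%), below the share of all genes.

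The sequences that carry the main findings are those of strong promoters with 4 motifs, on the mouse build GRCm38 (mm10), read from the genome sequence and written 5′ to 3′ along the gene's strand, with every match of that set's motif in capitals. The first set holds a palindrome of 10 bases, whose letters are the capitals of its sequences, and which is known to be bound by BANP and, when methylated, by ZBTB33 (Kaiso). It is shown because its share was highest among the strongest peaks of the class, though most of those lack it. A window overlapping an exon is cut to 30 bases around the match, and the others show 50 bases on each side of the summit.
Wdr77, chr3:105959267-105959296, plus strand: cgctcgcacaTCTCGCGAGAagagatcagc
Rraga, chr4:86575644-86575673, plus strand: ccctcggagtTCTCGCGAGAtgccggcggg
Psmd5, chr2:34870966-34871066, minus strand: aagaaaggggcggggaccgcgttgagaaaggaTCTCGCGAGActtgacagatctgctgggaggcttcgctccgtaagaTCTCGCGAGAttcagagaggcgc
Rpl26, chr11:68901530-68901559, plus strand: gctccgagacTCTCGCGAGAtctcgcggca

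The second set shows the ETS motif CCGGAAG, bound by factors such as GABPA, because its excess at the summits and that of the GC box were the largest. Rraga and Rpl26 hold it as well as the palindrome.
Rraga, chr4:86575612-86575641, plus strand: cgatgtcgccaCCGGAAGtgggtggcggca
Rpl26, chr11:68901559-68901588, plus strand: aacttacagaaCCGGAAGtcgcgtgtagtt

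The third set shows the CCAAT box bound by NFY, CCAAT followed by CA, GA, CG or GG, which appears here as its reverse complement.
Mut, chr17:40934673-40934702, plus strand: gccccctgattTGATTGGctgccgagctcc

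The fourth set shows the composite of a partial E-box and a GATA motif that GATA1 and TAL1 bind together in erythroid cells, CTG and GATAA with 8 or 9 bases between them. Few of these promoters hold it, and it is shown for where those few stood in the order of signal.
Psme3, chr11:101315715-101315815, plus strand: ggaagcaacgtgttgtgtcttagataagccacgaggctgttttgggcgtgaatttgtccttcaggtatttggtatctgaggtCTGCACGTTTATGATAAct
Abcg2, chr6:58640782-58640882, plus strand: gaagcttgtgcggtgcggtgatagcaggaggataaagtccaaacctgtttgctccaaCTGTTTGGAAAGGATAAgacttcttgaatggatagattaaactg

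The palindrome lay within 50 bases of the summit at 67 of the 2549 CpG-rich single-gene promoter peaks (2.63%, interval 2.04 to 3.33%). Windows centred 500 bases to either side of the same summits held it in 0 of 5098, which allows a share of up to 0.0588%. Divergent gene-pair promoter peaks held it in 1.83%. It was rare at CpG-poor single-gene promoter peaks (0.0416%) and at distal peaks (0.00471%), those over 1 kb from a TSS. The palindrome holds CG dinucleotides, and the rule sets the CpG content of the CpG-rich and CpG-poor classes. The part of base composition in these differences was not tested. Only matches lying whole within 50 bases of the summit were counted, which bounds the distance of their centres from it. In 40 of the 67 the centre of the match lay within 20 bases of the summit. They lay close to the TSS, with the match centre at a median of -32.5 bases from it (negative upstream).

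Peaks with the palindrome were strong in both replicates. Their median signal was 79.2 in the optimal list, against 37.7 for the other CpG-rich single-gene promoter peaks. In replicate 1 the medians were 54.9 with the palindrome and 27.9 without it, and in replicate 2 they were 23.9 with it and 12 without it. Replicate 2 listed a peak at 63 of the 67. The ranges overlapped, since signal at the 67 ran between 10.8 and 278. Wdr77, a subunit of the PRMT5 methylosome, had the highest of them, with signals of 166 in replicate 1 and 112 in replicate 2. Rraga, a Rag GTPase of amino acid sensing, had 150 in replicate 1 and 81.9 in replicate 2. The proteasome assembly gene Psmd5, whose window holds 2 matches, had 129 in replicate 1 and 78.0 in replicate 2. Rpl26, a protein of the large ribosomal subunit, had 94.3 in replicate 1 and 61.9 in replicate 2.

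**Figure D1:**
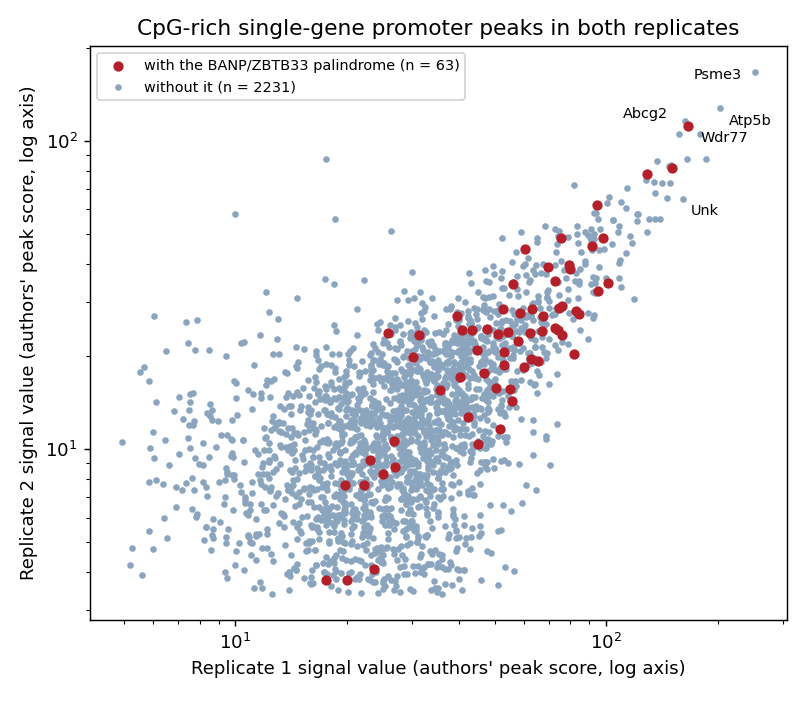
Signal value of each CpG-rich single-gene promoter peak in replicate 1 (x axis) and replicate 2 (y axis), both on log axes, for peaks listed by both replicates; red points hold the palindrome of BANP and ZBTB33 within 50 bases of the summit. The 63 red points lie mostly in the upper right, with Wdr77 the highest, and the cloud widens towards low signal.

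The share of peaks with the palindrome was highest among the strongest. Ranked by signal in 10 equal bins, it was 12.9% in the strongest bin (33 of 255, interval 9.08 to 17.7%), 5.49% in the next and at most 1.96% in each of the other 8. Among annotated promoters the relation held in the other direction. Of the genes with a CpG-rich single-gene promoter, 97 had the palindrome between 250 bases upstream and 50 bases downstream of the TSS with the most transcripts, and 71 of them had a CpG-rich single-gene promoter peak (73.2%, interval 63.2 to 81.7%). The share was 21% of the 10134 genes without it, and 21.5% of all 10231 genes with such a promoter. From replicate 1 alone the shares were 79.4% with the palindrome and 26.8% without it. From replicate 2 alone they were 69.1% with it and 16.1% without it. Over all protein-coding promoters of this length 0.591% held the palindrome.

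The ETS motif was found at 351 summits (13.8%, interval 12.5 to 15.2%), against 1.67% of the windows 500 bases away. Divergent gene-pair promoter peaks held it in 13.3%, CpG-poor single-gene promoter peaks in 2.25% and distal peaks in 1.17%. CCGGAAG holds a CG dinucleotide. The median CpG observed/expected ratio was 0.81 in the class, 0.36 at CpG-poor single-gene promoter peaks and 0.21 at distal peaks. The part of base composition in these shares was not tested. A promoter with CCGGAAG had a CpG-rich single-gene promoter peak in 35.9% of 1676 genes, against 18.7% of the genes without it. Replicate 1 alone gave 43.7% with CCGGAAG and 24.1% without it, and replicate 2 alone gave 27.9% with it and 14.4% without it. Unlike the palindrome, ETS motifs had a lower share in the strongest bin (9.80%) than in the next 6 bins, where it ran between 13.8 and 18.4%. The weakest bin had 6.27%. The letters stand in 11% of all protein-coding promoters, over the promoter window, which is longer than the one at summits.

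**Figure D2:**
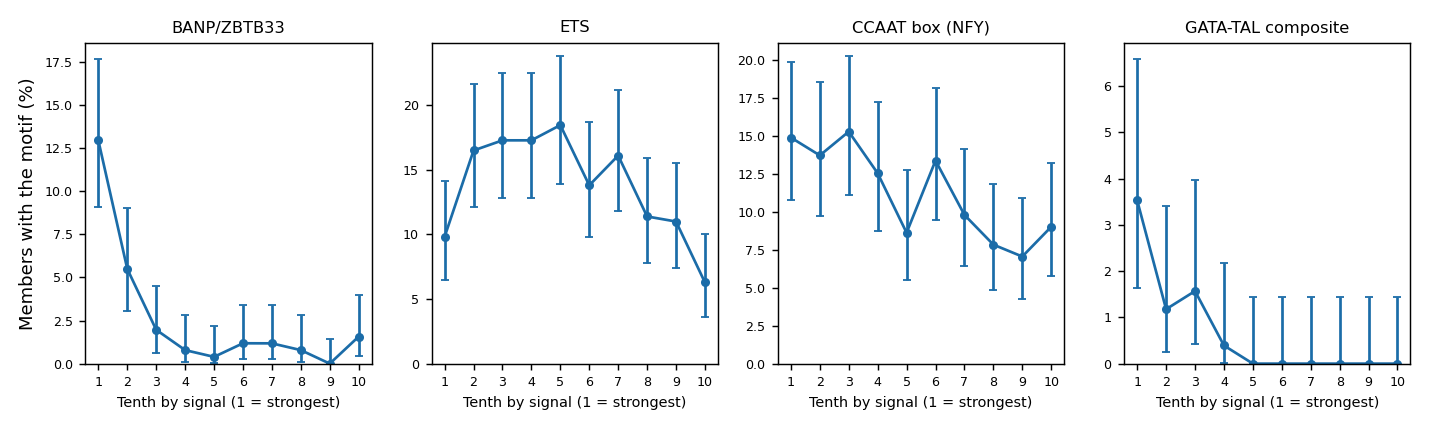
Share of CpG-rich single-gene promoter peaks with each motif within 50 bases of the summit (y axis, %) in 10 equal bins ranked by signal in the optimal list (x axis, 1 the strongest), with 95% Clopper-Pearson intervals; each panel has its own y axis starting at 0. The palindrome is at 12.9% in bin 1 and 5.49% in bin 2, ETS is highest in bin 5 at 18.4%, and the GATA and E-box composite is at 0 from bin 5 on.

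The CCAAT box was found at 286 summits (11.2%) against 2.59% of the windows beside them, at 14.3% of the strongest 20% of peaks and at 8.04% of the weakest 20%. The median signal with it was 43.9, against 37.6 without it. Promoters with a CCAAT box had a peak in 28.2% of 2234 genes, against 19.6% of those without one. Mut, the mitochondrial methylmalonyl-CoA mutase, had signals of 140 in replicate 1 and 55.9 in replicate 2. CCAAT letters stand in 19.2% of all protein-coding promoters, over the promoter window, which is longer than the one at summits.

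The GC box GGGCGGG, bound by SP and KLF factors, was the most frequent motif at the summits but did not mark promoters with a peak. It was in 18.3% of summit windows and 6.96% of the windows 500 bases away, where mean G+C was 60.1% at the summits and 53.4% beside them. Promoters with the GC box had a peak in 19.5% of 5579 genes, below the 23.9% of those without it. Mean G+C was 60.6% in promoters with a peak and 64.0% in promoters without one, and the part of base composition in these shares was not tested. GC boxes stand in 32.5% of all protein-coding promoters, over the promoter window, which is longer than the one at summits. The YY1 motif AAGATGGC went with more peaks, in 33.7% of 416 promoters against 21% of the others, while the NRF1 motif did not, in 20.7% of 1055 against 21.6%. The partial CRE TGACGT (bound by CREB and ATF factors) was at 5.41% of summits and 1.82% of flanks, and the E-box CACGTG at 4.67% of summits and 1.79% of flanks. All protein-coding promoters hold the YY1 motif in 3.01%, the NRF1 motif in 6.08%, the partial CRE in 8.67% and the E-box in 7.65%. These shares are over the promoter window, which is longer than the one at summits, so the 2 kinds are not comparable. In the promoter window the partial CRE was in 15.3% of CpG-rich single-gene promoters with a peak and 11.1% of those without. The E-box was in 12.2% of those with a peak and 10.8% of those without.

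Motifs of liver and blood factors were infrequent at the summits. Promoters with the GATA, CEBP or FOXA motif had a peak more often than those without, and promoters with the TAL1 E-box less often. AGATAA or TGATAA, the GATA motif, was at 4.32% of summits, below its 6.49% in the flanks, against 23.4% of CpG-poor single-gene promoter peaks and 38.1% of distal peaks. TTGCNNAA, the CEBP motif, was at 3.3% of summits against 7.99% of CpG-poor single-gene promoter peaks. FOXA motifs (TGTTTAC or TGTTTGC) were at 2.31%, against 5.08%. The fixed letters of these motifs are mostly A and T. Median G+C was 59.9% in the class, 49.1% at CpG-poor single-gene promoter peaks and 45.9% at distal peaks. The part of base composition in these shares was not tested. Promoters with the GATA motif had a peak in 27.3% of 776 genes (interval 24.2 to 30.6%), against 21% of those without it. With the CEBP motif the share was 27.6% of 733 (24.4 to 30.9%) and with the FOXA motif 29.0% of 496 (25.1 to 33.2%), each above the 21.5% of all such promoters and close to the 28.2% with a CCAAT box. Promoters with the TAL1 E-box (CAGATG or CAGCTG) had a peak less often, in 19.1% of 2261 (17.5 to 20.8%) against 22.2% without it. That E-box was at 6.71% of summits and 9.38% of flanks. The shares were 28.1% of 32 with the HNF4 motif and 23.1% of 13 with the HNF1 motif, and both intervals include 21.5%. Mean G+C was 60.6% in promoters with a peak and 64.0% in those without one, and its part in these shares was not tested either. Over all protein-coding promoters the CEBP motif stands in 10.4% and the FOXA motif in 7.71%, in the promoter window, which is longer than the one at summits. The GATA and E-box composite was at 0.667% of summits and 0.432% of flanks, against 6.29% of CpG-poor single-gene promoter peaks and 9.50% of distal peaks. The 17 peaks with the composite all lay in the 4 strongest of the 10 bins, with a median signal of 83.1 against 37.9 for the rest. Their medians were 60.9 in replicate 1 and 29.1 in replicate 2, against 28.1 in replicate 1 and 12.1 in replicate 2 for the rest. Psme3 headed them, followed by Abcg2 and Sde2. Of 50 promoters that hold the composite 14 had a peak (28.0%), with an interval of 16.2 to 42.5% that includes the 21.5% of promoters without it. In the same longer window the composite stands in 1.15% of all protein-coding promoters, and the GATA motif in 16.4%.

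**Figure D3:**
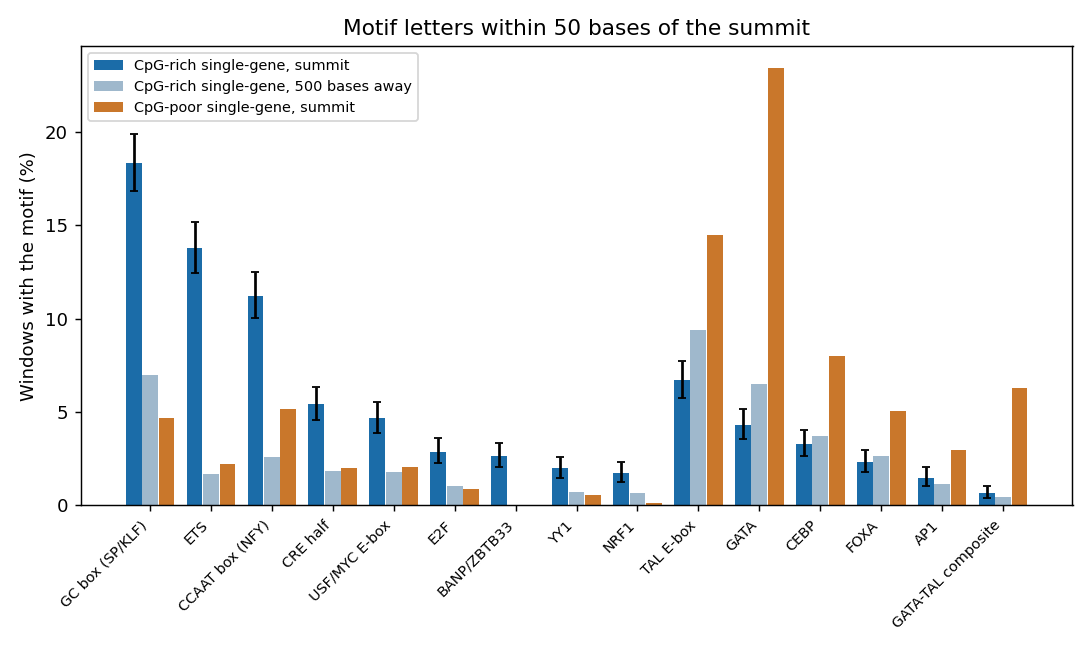
Share of windows with each motif (y axis, %) within 50 bases of the summit of CpG-rich single-gene promoter peaks (dark blue, with 95% Clopper-Pearson intervals), 500 bases from those summits (light blue) and at summits of CpG-poor single-gene promoter peaks (orange). ETS, CCAAT and GC boxes stand highest at the CpG-rich summits, while GATA is at 4.32% there and 23.4% at CpG-poor summits.

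Some motif matches shared bases. ETS shared them with the GC box at 4 of its 351 peaks, while E2F motifs (TTCCCGCC or TTTCCCGC) did so with the GC box at 27 of their 73 peaks. The composite shared bases with the GATA motif at 12 of its 17 peaks, and the full CRE holds the partial one at all of its 39. Peaks with at least 1 of ETS, NRF1, CCAAT, CRE or YY1 numbered 712 (27.9%), and 284 (11.1%) had at least 1 of GATA, FOXA, HNF4, HNF1, CEBP or AP1. Of the first group 68.0% had the summit within 100 bases of the TSS, and of the second 37.7%. No motif of either group was found at 1616 peaks (63.4%), whose median signal was 35.8.

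The 15 strongest CpG-rich single-gene promoter peaks were all in the conservative list too. Psme3, a proteasome activator subunit, had the highest signal, 409, with 252 in replicate 1 and 168 in replicate 2. Its summit lay at -448 bases from the TSS (chr11:101315608-101315918). Atp5b, the catalytic beta subunit of mitochondrial ATP synthase, followed with 203 in replicate 1 and 128 in replicate 2 (chr10:128083053-128083268). Cdca7, a cell division gene regulated by MYC and E2F, had 180 in replicate 1 and 105 in replicate 2. Abcg2, a transporter that exports porphyrins and drugs, had 163 in replicate 1 and 116 in replicate 2, with its summit in an intron, 250 bases downstream of the TSS. Cdk12, a kinase of RNA polymerase II, had 157 in replicate 1 and 106 in replicate 2. Sde2, a gene of DNA replication and splicing, had 165 in replicate 1 and 87.6 in replicate 2. Replicate 1 had the higher value at each of the 15, though the 2 lists' scales are not stated to be the same.

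Of the others, Denr (translation re-initiation), Mt1 (a metal-binding metallothionein), Unk (an RNA-binding protein), Runx1t1 (the corepressor ETO), Hist1h4c (histone H4) and the protein-coding C530008M17Rik had signals between 216 and 234 in the optimal list. Rraga, among the holders of the palindrome, had 233. Of the 15 summits 10 lay upstream of the TSS, and the others were those of Denr, Unk, Runx1t1, Abcg2 and C530008M17Rik.

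Strong as these were, the class held few of the strongest peaks of the whole list. Of the 100 strongest peaks 0 were in it, which allows up to 3%, and of the 500 strongest 2, against 36 CpG-poor single-gene promoter peaks. In the strongest 10% of the whole list the class made up 3.28% (88 of 2685), against 7.64% for CpG-poor single-gene promoter peaks. Its share was 12.1% in the third of 10 equal bins and 11.1% in the weakest. The median signal of the class was 38.0, with quartiles at 26.5 and 55.8, against 33.7 for CpG-poor single-gene promoter peaks, 40.9 for divergent gene-pair promoters and 38.7 for distal peaks.

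Which of the 2 promoter classes was higher depended on the values compared. At the peaks of the optimal list, the log2 ratio of the medians, CpG-rich over CpG-poor, was 0.18 in the optimal list, 0.26 in replicate 1 (medians 28.2 and 23.5) and -0.04 in replicate 2 (medians 12.1 and 12.5). With each replicate's own highest peaks classed in their place it was 0.09 for replicate 1 and 0.12 for replicate 2. In the stronger 50% of the optimal list it was -0.14. The 273 distal peaks that passed the same limits of G+C and CpG ratio, but were not matched further, had a median of 35.2 in the optimal list. The class had 38.0 there. In replicate 1 these distal peaks had 25.6, below the 28.2 of the class, and in replicate 2 they had 12.8, above its 12.1.

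Recurrence of the class was below that of the whole list in the conservative list and in replicate 2, and not in replicate 1. The same summit was in the conservative list for 1684 peaks (66.1%, interval 64.2 to 67.9%), against 74.4% of all peaks. The other promoter classes were below the whole list there too, CpG-poor single-gene peaks at 68.1% and divergent gene-pair peaks at 67.5%. Replicate 1 listed an overlapping peak for 99.8% of the class and 99.8% of all peaks, and replicate 2 for 90.2% of the class and 95.9% of all peaks. In replicate 2 the share was 90.9% for divergent gene-pair promoter peaks and 95.6% for CpG-poor single-gene ones. Among the 26844 highest peaks of replicate 1 the class had an overlap for 86.4%, above the 82.4% of all peaks. Among those of replicate 2 it had one for 64.5%, below the 74.2% of all peaks. Divergent gene-pair promoter peaks had 85.7% in replicate 1 and 69.8% in replicate 2. CpG-poor single-gene ones had 75.9% in replicate 1 and 69.8% in replicate 2. Overlap with the highest peaks of both replicates was found for 1480 (58.1%), against 64% of all peaks. Spearman's rho between the replicates was 0.53 across 2294 peaks of the class, 0.63 across 2287 CpG-poor single-gene promoter peaks and 0.73 across 20526 distal peaks. These correlations are across peaks of the same 2 libraries and are a description.

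The replicates also differed with base composition. The median log2 ratio of replicate 1 over replicate 2 was 1.04 for peaks of 50 to 55% G+C, 1.28 for 60 to 65% and 1.51 for those at 70% or more. The share with a replicate 2 peak was 95.4% in the lowest of these bins and 80.7% in the highest. Distal peaks moved the same way, with 0.84 under 40% G+C and 1.25 at 65 to 70%. The part of this in the class medians was not tested.

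Summits lay close to the TSS, mostly just upstream. The median position was 56 bases upstream of the TSS, written -56, with quartiles at -155 and 11, against -90.5 for CpG-poor single-gene promoter peaks, with quartiles at -340 and 104. Within 100 bases of the TSS lay 1267 summits (49.7%), against 26.4% of CpG-poor ones. Upstream of the TSS lay 70.8%, against 67.4%. The strongest 20% of peaks had 53.9% of summits within 100 bases and the weakest 20% had 43.5%. Summits in the 200 bases upstream had the highest medians of signal among bins of at least 20 peaks, 43.1 between 200 and 100 bases upstream and 42.4 in the last 100.

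**Figure D4:**
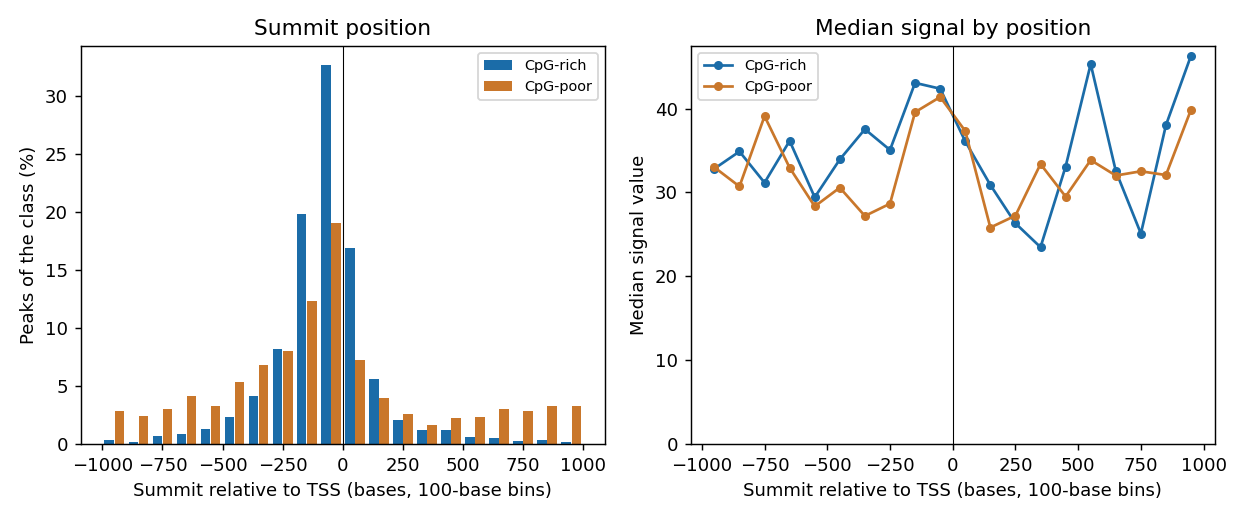
Left, share of peaks of each class (y axis, %) by summit position relative to the TSS in 100-base bins (x axis, negative upstream); right, the median signal value in the same bins. CpG-rich single-gene promoter peaks (blue) peak in the 100 bases before the TSS at 32.7%, against 19.1% for CpG-poor ones (orange), and bins beyond 500 bases hold few CpG-rich peaks.

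By the gene annotation, 1401 summits (55%) lay outside protein-coding transcripts, 692 (27.1%) in an exon's untranslated part, 376 (14.8%) in an intron and 80 (3.14%) in a coding exon. The median signal was 40.6 outside transcripts and 29.4 in coding exons. A noncoding gene started head to head within 1 kb at 273 peaks (10.7%), against 4.29% of CpG-poor single-gene promoter peaks. Median signal was 38.2 with such a gene and 38.0 without one.

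The median distance to the next peak of any class was 4.35 kb, against 2.27 kb for CpG-poor single-gene promoter peaks and 5.36 kb for distal peaks. Another peak lay within 10 kb of 1585 of the 2549 (62.2%), against 1719 of 2402 CpG-poor ones. A stronger peak lay within 500 bases of 332 (13%).

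Within the class the values followed base composition weakly. Signal rose with the CpG observed/expected ratio, from a median of 34.2 at 0.6 to 0.7 to 44.6 at 1.0 to 1.1, and was 42.0 in the 38 peaks above that. Spearman's rho with this ratio was 0.14 and with G+C -0.06, across 2549 peaks that share their libraries. The class had a median G+C of 59.9% and a median ratio of 0.81, which the rule sets in part. At the edges of the rule, Shcbp1 (50.1% G+C, signal 48.6) and Arid1a (ratio 0.6003, signal 55.2) were just inside. Nasp (49.9% G+C, signal 25.7) and Mef2d (ratio 0.599, signal 13.7) were just outside, as was Hist1h1c at 1012 bases from its TSS, while Mnt at -993 was inside.

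Of all annotated genes with a CpG-rich single-gene promoter, 2199 of 10231 had such a peak within 1 kb (21.5%, interval 20.7 to 22.3%), and of all protein-coding genes 10.5%. Genes with only CpG-poor single-gene promoters had a CpG-poor peak in 7.57% of 10031. A peak of any kind lay within 1 kb at 30.4% of the genes with a CpG-rich single-gene promoter. It did so at 10.7% of those with only CpG-poor ones and at 48.2% of 1384 genes with only divergent promoters. The share with a CpG-rich single-gene promoter peak rose with the ratio of the promoter, 12.3% at 0.6 to 0.7 and 26.5% at 1.0 to 1.1. It was 24.8% above that. Genes with 1 annotated TSS had such a peak in 19.5% and those with 5 or more in 23.6%.

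Among 31 lists of genes, 20 had a share above the 21.5% of all such promoters, and for 14 the interval lay above it. Cytosolic ribosomal protein genes had the highest count. Of 63 cytosolic ribosomal protein genes with a CpG-rich single-gene promoter 40 had a peak (63.5%, interval 50.4 to 75.3%), and in 33 of the 40 a peak was among the highest of both replicates, against 1363 of the 2199 genes with such a peak. Rpl26, described above, led them, and Rps15a had 92.8 in replicate 1 and 58.2 in replicate 2. Rpl3 had 94.9 in replicate 1 and 55.8 in replicate 2. Rpl11, Rpl13a and Rpl14 had none, although a peak of another class lay 0.288 kb from a TSS of Rpl14. Mitochondrial ribosomal protein genes had a peak in 16 of 50 (32%), whose interval of 19.5 to 46.7% includes the 21.5%. From replicate 1 alone the share was 48%, where all such promoters had 27.3%. Among them Mrpl11 led with 74.8 in replicate 1 and 31.6 in replicate 2. Translation factors and tRNA synthetases had one in 25 of 50, among them the GTPase-activating factor Eif5 with 122 in replicate 1 and 57.9 in replicate 2.

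Splicing factors had a peak in 20 of 34 (58.8%), including Hnrnpc, with 52.4 in replicate 1 and 48.6 in replicate 2. Cytosolic chaperones had one in 10 of 15, and proteasome subunits in 15 of 29. Psmd1, a base subunit of the regulatory particle, had 83.5 in replicate 1 and 49.9 in replicate 2. RNA polymerase II, general factors and Mediator had a peak in 34 of 70, with Polr2e at 85.3 in replicate 1 and 38.4 in replicate 2. Ccnc and Cdk8 had none. Oxidative phosphorylation genes had one in 19 of 48, with Atp5b and Atp5l the highest. Cell cycle and DNA replication genes had one in 19 of 42. Endoplasmic reticulum folding and stress genes had one in 14 of 26. The CCAAT box, at 11.2% of all peaks of the class, stood at 7 of the 19 cell cycle peaks and at 5 of these 14. Both were named after their values were seen, as the highest shares among the lists with at least 10 such peaks, and the box stood at 2 of 40 peaks of cytosolic ribosomal protein genes and 0 of 34 of RNA polymerase II genes. Eif2ak3, the kinase PERK, had 62.2 in replicate 1 and 35.3 in replicate 2. Histone genes had one in 16 of 31, but reads of near-identical copies may be shared among them, so these values are uncertain.

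Immediate early genes had a peak in 16 of 34 (47.1%, interval 29.8 to 64.9%), with Per1 at 91.2 in replicate 1 and 47.7 in replicate 2 and Junb at 66.4 in replicate 1 and 28.8 in replicate 2. Clock genes had one in 9 of 19 (47.4%), but replicate 2 alone and the conservative list each gave 21.1%, where all such promoters had 16.6% from replicate 2 alone and 17.7% in the conservative list. Among them was Arntl (BMAL1) with 65.1 in replicate 1 and 48.4 in replicate 2. Sterol and fatty acid synthesis genes had one in 7 of 25, whose interval of 12.1 to 49.4% includes the background, and the share was 16% from replicate 2 alone. Srebf2, the master regulator of sterol synthesis, had 110 in replicate 1 and 33.7 in replicate 2. Histone acetyltransferases and chromatin enzymes had one in 12 of 34, with Kat6b the highest, and their interval of 19.7 to 53.5% includes the 21.5% as well. From replicate 2 alone their share was 23.5%.

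Among lists of liver and blood cells, hepatocyte metabolic enzymes with such promoters had a peak in 8 of 14 (57.1%). Pcx, pyruvate carboxylase, had 89.6 in replicate 1 and 27.7 in replicate 2, and Abcb4, the phospholipid exporter of bile, had 55.7 in replicate 1 and 28.2 in replicate 2. Hepatocyte transcription factors had one in 3 of 19 (15.8%), but 0 from replicate 2 alone and 5.26% in the conservative list, and 0 had a peak among the highest of both replicates. They were led by Cebpa with 33.6 in replicate 1 and 7.68 in replicate 2. Neither of the 2 hepatocyte secreted protein genes with such a promoter, Apoh and Rbp4, had one, though both had another peak within 1 kb. Erythroid genes had one in 11 of 27 (40.7%, interval 22.4 to 61.2%). Tal1, a master factor of blood formation, had 113 in replicate 1 and 43.3 in replicate 2, and the erythropoietin receptor Epor had 109 in replicate 1 and 41.2 in replicate 2. Sptb, erythroid spectrin beta, had 94.0 in replicate 1 and 36.0 in replicate 2. Heme and iron genes had one in 6 of 20, with Ireb2 the highest, and an interval of 11.9 to 54.3% that includes the 21.5%. Blood stem and progenitor genes had one in 1 of 16, which was Tal1. Replicate 1 alone gave 18.8%, where all such promoters had 27.3%.

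The lists of developmental and neuron genes had 0 such peaks. The developmental transcription factors were listed as silent in liver, so their count is no independent result. Of 88 developmental transcription factor genes with a CpG-rich single-gene promoter 0 had such a peak, which allows up to 3.41%, and 0 had a peak of any class within 1 kb. Barx1 and Cdx2 were among them. Neuron genes had 0 of 16, which allows up to 18.8%. The lists of megakaryocyte, endothelial, stellate, bile duct, macrophage and lymphoid genes also had 0 such peaks, but held only 2 to 7 genes with such a promoter each. For the 7 of bile duct cells that count allows up to 42.9%. A peak of another class lay within 1 kb at 2 of 5 megakaryocyte, 2 of 6 endothelial and 1 of 3 macrophage genes with such a promoter.

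**Figure D5:**
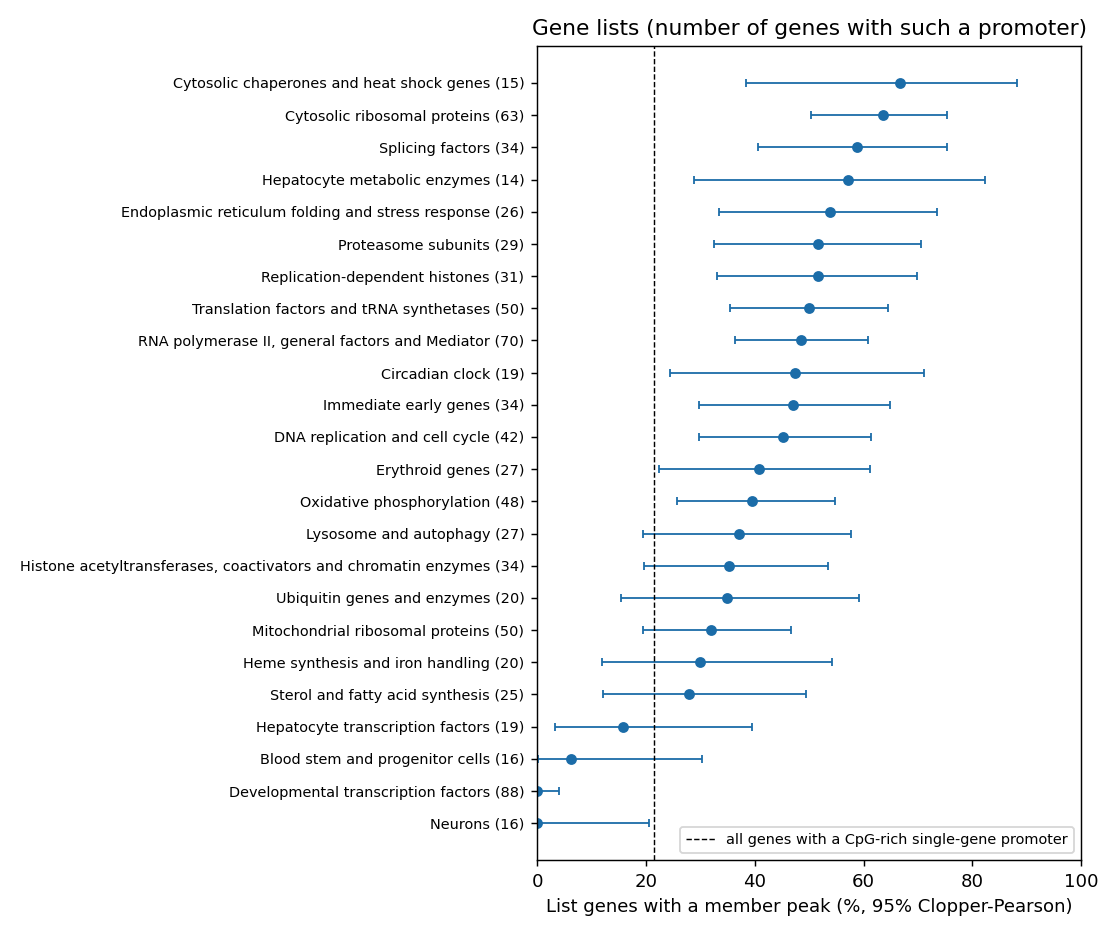
Share of the genes of each list whose CpG-rich single-gene promoter had such a peak (x axis, %), with 95% Clopper-Pearson intervals, for lists of at least 10 genes with such a promoter (number in parentheses); the dashed line is the 21.5% of all such promoters. Chaperones, ribosomal proteins and splicing factors stand highest, and developmental transcription factors (listed as silent in liver) and neuron genes are at 0, with intervals up to 4.11% and 20.6%.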

How the data were processed

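EP300 ChIP-seq peak lists of 2 replicates of newborn mouse liver were used, 5 in all: 1 per replicate, 1 pooled, and the optimal and conservative IDR lists. The README texts deposited beside them say that every list came from aligned reads and a control alignment on mm10. The aligner, the caller, the IDR threshold and the treatment of reads with several alignments were not given in the sources used here. The deposited signal value is the authors' score per peak. Column 9 of the deposited replicate lists is a −log10 q-value; in the IDR and pooled lists some of its values are below 0, so it was treated as a score and used only as an alternative. No list gives read counts. There were 0 columns of other series.

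Summits were classed against GENCODE M21 protein-coding transcripts and the GRCm38 genome with Python 3.11.15, NumPy 2.4.6, pandas 2.3.3 and SciPy 1.17.1; figures used matplotlib 3.10.9. Replicate values are those of the overlapping peak (at least 1 base) with the nearest summit. Windows of 101 bases around summits were searched for 34 motifs on both strands, and promoters from 250 bases upstream to 50 downstream. Steps were tested on simulated data. Members, 31 gene lists, motifs and alternatives were chosen with earlier results of these data known. Genes named are the 15 of highest signal, the 3 highest and first 3 lacking a peak by name in each list, the 2 highest holders of each motif shown, and those nearest each threshold; each is a gene of the nearest TSS, and a few genes that this rule names are not reported here. Alternatives were the conservative list, each replicate alone (its 26844 highest peaks), the stronger 50% of peaks, other TSS distances and sets, other windows, a stricter ratio, 1 peak a gene, and column 9.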

Additional observations from a re-analysis of the deposited data

How the results depend on the processing

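No paired analysis was possible because there is only 1 group. At the peaks of the optimal list, the log2 ratio of medians, CpG-rich over CpG-poor, was -0.04 with the values of replicate 2. Among the alternatives it turned to -0.14 in the stronger 50% of peaks, and stayed above 0 under every other one. That subset held 1259 CpG-rich single-gene promoter peaks; the lists of single replicates held 1848 to 3068. The share of promoters with a peak was 16.6 to 27.3% from single replicates, 17.7% in the conservative list, 12% in the stronger 50%, 20.6% at 500 bases from a TSS, 18.9% with the shorter sequence window, 24.0% with the longer one and 19.3% at a ratio of 0.75. Median summit positions of -61 (conservative), -63 (stronger 50%), -49 (shorter window), -73 (longer window) and -51 (ratio 0.75) all stayed upstream. Overlap with the conservative list, 70.3% by at least 1 base, was 61.1 to 88.7% from single replicates and 90.6% in the stronger 50%. The ETS excess, 12.1 points, was 13.9 in the stronger 50%, 10.5 with the longer window, 13.9 at 1 peak a gene, and 7.08 and 19.2 with motif windows of 25 and 100 bases. The GC box excess, 11.4 points, was above that of ETS from replicate 1 alone (13.4 against 12.8) and with the motif window of 100 bases (20.9). The palindrome kept an excess of 1.69 to 4.29 points. Leaving out peaks beside a stronger one, chosen after seeing the data, left 2217. Between 19 and 21 of the 31 gene lists stood above the share of all such promoters; sterol genes did not from replicate 2 alone, nor lysosome genes at a ratio of 0.75.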
